A study of Mus musculus with 8 samples.

Results

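Spleen cells that lack p53 were treated in culture with amsacrine, and their RNA was compared on arrays with that of untreated or carrier-treated cells of the same genotype. The comparison rests on 1 amsacrine array and 2 control arrays, out of 8 arrays in the study. It covers every probe with a detection p under 0.01 on at least 1 of these 3 arrays, which is 9306 of the 24613 probes on the array. With 1 probe per gene this gave 6806 genes, out of 7456 genes detected on at least 1 of the 8 arrays. Per the labels, the p53-null (p53-/-) mice were of the C57BL/6 strain and 5 to 6 weeks old, and the spleens of 4 mice were pooled into a suspension of single cells. Treated cells received 1 µg per mL of amsacrine for 5 hours. The labels describe 30% ethanol as the carrier for the drug controls and no treatment for the controls of the irradiation experiment, and they call both p53-null arrays only control. The sources used here do not say which of the 2 control arrays received carrier, so carrier and array differences within that pair cannot be told apart. They also do not say whether the pair stems from separate pools of mice or separate cultures. The p-values therefore reflect the spread between these arrays alone, and that spread may be technical. The wild-type (WT) amsacrine and WT control groups, with 1 array each and the same strain, age, pooling and dose, served for comparison. The other arrays, p53-null irradiated (4 Gy), Δ122p53 control and Δ122p53 amsacrine, entered the normalization, the choice of probes, the set of genes tested and the fit, and are not described here. Trp53 had no named probe, so a check of the genotype on the targeted gene was not analysed here.

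Amsacrine is a poison of topoisomerase II, the enzyme that passes one DNA duplex through a break in another. It traps the enzyme on the cut DNA and so leaves protein-linked double-strand breaks. In cells with p53 such breaks stabilise the protein, which then switches on genes for cell cycle arrest, repair and death. Cells also have damage and stress pathways that do not pass through p53, among them the integrated stress response, in which phosphorylation of eIF2α favours translation of the transcription factor ATF4 and ATF4 in turn activates genes of amino acid uptake, amino acid synthesis and tRNA charging. A spleen cell suspension is a mixture, mainly of B and T lymphocytes with macrophages, granulocytes and red cell precursors.

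Levels below are log2 normalized intensities, and differences are log2 differences between the amsacrine array and the mean of the 2 controls, ± the standard error (SE) that limma gives. Median signal per array ran from 69.75 to 81.5 across the study, and the number of arrays limits the precision. The amsacrine array had 7977 detected probes, control 1 had 8065 and control 2 had 8633. Across probes the amsacrine array correlated with control 1 at r = 0.932 and with control 2 at r = 0.915, against r = 0.961 for the control pair. The controls were 2-fold or more apart for 498 genes (7.32%). The median absolute difference between them was 0.32, against 0.44 for amsacrine minus their mean.

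In limma, 10 genes passed the threshold of 0.05 on the adjusted p, which is 0.134% of the 7456 genes tested. Of these, 5 rose (0.0671%) and 5 fell (0.0671%). At an unadjusted p under 0.05 there were 1267 member genes (18.6%), of which 529 were higher (7.77%) and 738 lower (10.8%). The amsacrine array was at least 2-fold above each control for 266 genes (3.91%) and at least 2-fold below each control for 433 genes (6.36%). These counts use the normalized values of undetected arrays as they stand. Where a gene was not detected on 1 side, that side has only a bound, and with such sides held at their bounds the counts were 218 (3.2%) and 354 (5.2%). A count given with bounds has the same meaning throughout. Among the 5429 genes detected on all 3 arrays the counts were 168 (3.09%) and 292 (5.38%). The median difference over all member genes was 0.02. The 10 calls depended on the processing: 0 genes passed with another background correction, with cyclic loess, without a detection filter or in the authors' normalized table. The plot of amsacrine against each control shows these genes far from the origin along the diagonal.

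**Figure D1:**
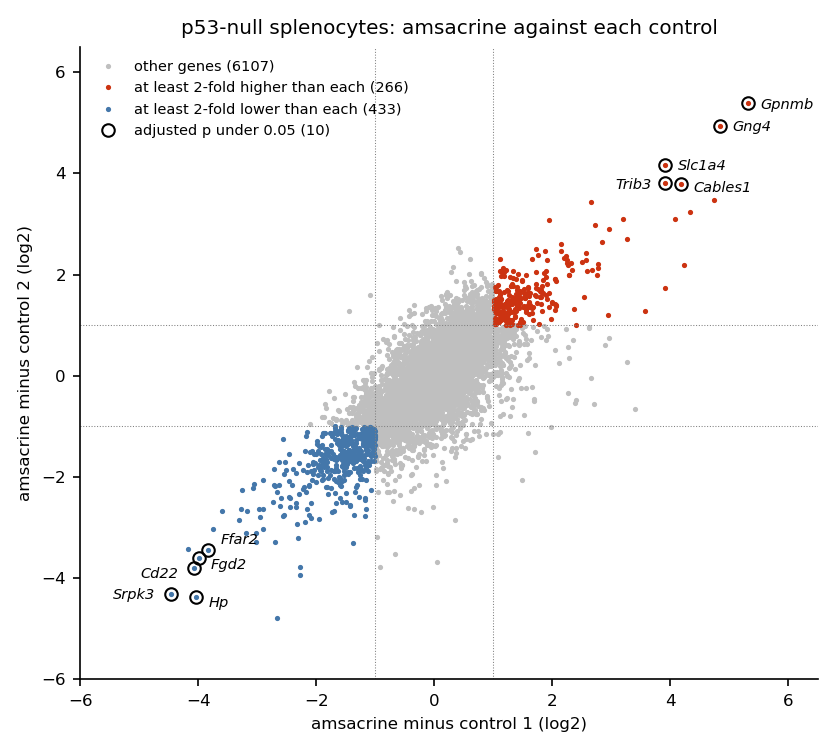
Each point is 1 of the 6806 member genes, with the log2 difference of the amsacrine array from control 1 on the x axis and from control 2 on the y axis. Red points (266) lie at least 2-fold above each control by normalized values, blue points (433) at least 2-fold below each, and black rings mark the 10 genes past the adjusted threshold, which sit at both ends of the diagonal. For genes not detected on 1 side the plotted difference is not exact.

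The 5 genes that rose were not detected on either control array, so their size is a lower bound. Gpnmb encodes a transmembrane glycoprotein of lysosomes and melanosomes that is made by macrophages. Its levels were 5.00 on control 1, 4.93 on control 2 and 10.32 on the amsacrine array, at least 22.6-fold higher (limma adjusted p = 0.0286). Gng4, which encodes a gamma subunit of heterotrimeric G proteins, stood at 4.71 and 4.62 on the controls and at 9.56 after amsacrine, at least 13.3-fold higher (limma adjusted p = 0.0286). Neither gene was detected on the controls, so the closeness of their control values is that of background signal. The SE and adjusted p of both genes rest on that closeness too. Trib3, a pseudokinase gene that ATF4 activates, had levels of 5.32 and 5.43 on the controls and 9.23 after amsacrine, at least 10.6-fold higher (limma adjusted p = 0.0342). Cables1 encodes an adaptor of cyclin-dependent kinases. It went from 4.71 and 5.10 on the controls to 8.88, at least 8.36-fold higher (limma adjusted p = 0.0354). Slc1a4, which encodes a carrier of alanine, serine and cysteine, had levels of 4.83 and 4.57 on the controls and 8.74 after amsacrine, at least 7.55-fold higher (limma adjusted p = 0.0342). All 5 lay above both controls, as did 40.1% of all member genes, and passing the threshold as higher selected for this.

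Other genes with large positive differences did not pass the threshold. AA467197 had levels of 5.88 and 7.13 on the controls and 10.61 on the amsacrine array, a difference of 4.11 ± 0.55 (limma adjusted p = 0.0694). Crem, which encodes activating and repressing factors of the cyclic AMP response, was at 5.42 and 6.51 on the controls and at 9.75 after amsacrine, a difference of 3.78 ± 0.51 (limma adjusted p = 0.0694). Both genes were detected on control 2 and not on control 1, so neither size is exact. Vegfa, the gene of the main growth factor for blood vessels, was likewise detected only on control 2. It stood at 4.98, 7.03 and 9.21, and its controls were 2.05 apart. Fam167a was measured on all 3 arrays, at 7.59, 7.68 and 10.78, with a difference of 3.15 ± 0.33 (limma adjusted p = 0.0557). Bcl2l11 encodes Bim, a death-promoting member of the Bcl-2 family. It was at 6.68 and 5.89 on the controls and at 9.33 after amsacrine, a difference of 3.04 ± 0.43. Mpzl2, a cell adhesion gene, was detected only on the amsacrine array (7.44, against 4.48 and 4.54) and was at least 3.07-fold higher. Fosl2, a partner of Jun in AP-1, was at 6.55, 8.72 and 10.46, with controls 2.17 apart. The plot of the largest genes gives all 3 arrays for each of these.

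**Figure D2:**
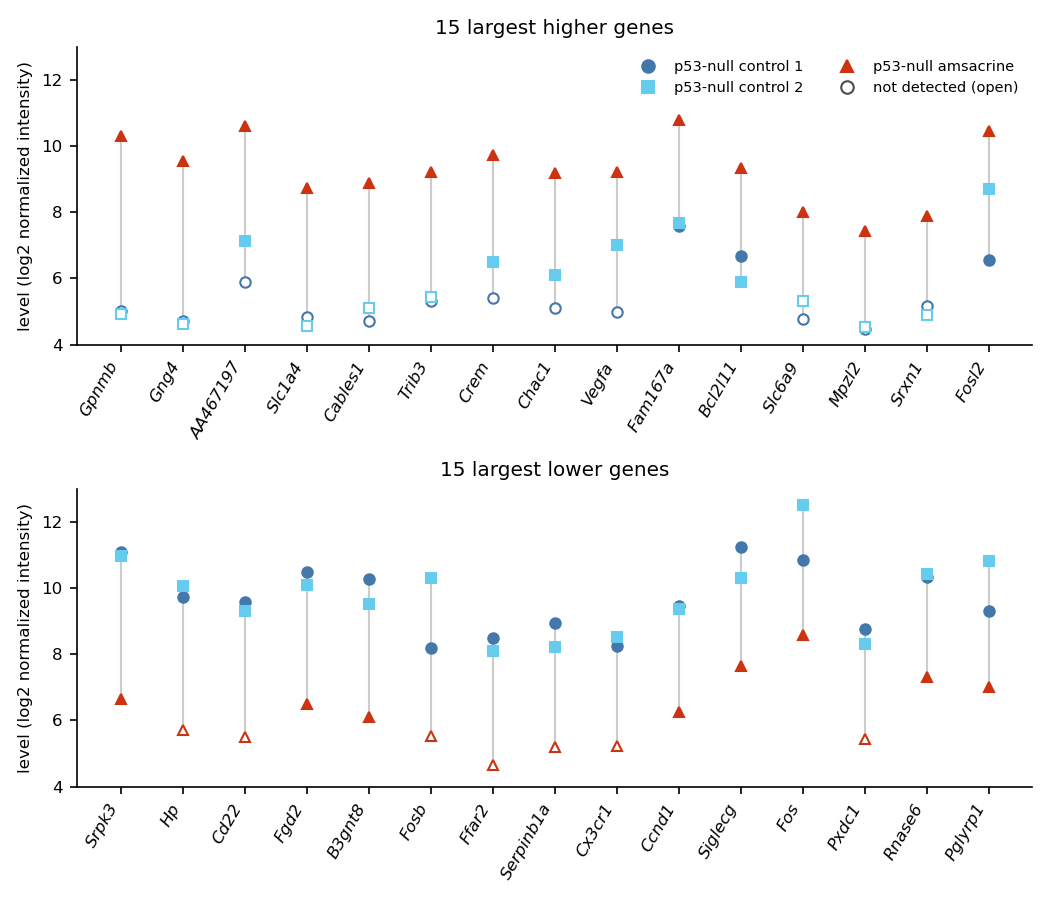
Log2 normalized intensity on the 3 p53-null arrays for the 15 genes with the largest differences each way, among those at least 2-fold from each control; open symbols mark an array on which the gene was not detected. Circles and squares are the 2 controls and triangles the amsacrine array. The controls of Srpk3 nearly coincide, whereas those of Fosl2 and Fosb lie over 2 apart. The controls of Gpnmb also nearly coincide, but the gene was detected on neither.

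The 5 genes that fell were detected on both controls. Srpk3, a kinase gene of the family that phosphorylates splicing factors, had levels of 11.11 on control 1, 10.96 on control 2 and 6.64 after amsacrine. It fell by 4.39 ± 0.33 on the log2 scale (limma adjusted p = 0.0342). Hp, the gene of the haemoglobin-binding protein haptoglobin, was at 9.74 and 10.07 on the controls and not detected after amsacrine (5.70), at least 15.5-fold lower (limma adjusted p = 0.0342). Its other probe had the same sign. Cd22 encodes an inhibitory co-receptor of the B cell antigen receptor. Its levels were 9.57 and 9.31 on the controls, and it was not detected after amsacrine (5.51), at least 11.2-fold lower (limma adjusted p = 0.0342). Fgd2, which encodes an exchange factor for the GTPase Cdc42, stood at 10.49, 10.10 and 6.49. It fell by 3.80 ± 0.35 (limma adjusted p = 0.0406). Ffar2, a receptor for short-chain fatty acids on myeloid cells, was at 8.49 and 8.11 on the controls and not detected after amsacrine (4.65), at least 5.09-fold lower (limma adjusted p = 0.0453). For each of the 5 the amsacrine array lay below both controls by far more than the controls differed. Passing the threshold as lower selected for this, and 37.2% of all member genes lay below both controls.

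Among the genes that missed the threshold, B3gnt8, a glycosyltransferase gene, was at 10.27, 9.52 and 6.10, a difference of -3.80 ± 0.42 (limma adjusted p = 0.0581). Ccnd1, which encodes cyclin D1, was at 9.45 and 9.38 on the controls and at 6.26 after amsacrine, a difference of -3.15 ± 0.33 (limma adjusted p = 0.0557), and its 3 other probes had the same sign. Cx3cr1, the fractalkine receptor of monocytes and macrophages, was not detected after amsacrine (5.23, against 8.26 and 8.52) and was at least 5.41-fold lower. Siglecg, another inhibitory receptor of B cells, was at 11.24, 10.31 and 7.64. Serpinb1a, which encodes an inhibitor of neutrophil proteases, was at 8.95 and 8.23 on the controls and not detected after amsacrine (5.19), at least 6.23-fold lower. Rnase6, a secreted ribonuclease gene, was at 10.34, 10.42 and 7.31, a difference of -3.07 ± 0.33 (limma adjusted p = 0.0563). In each of these 6 genes the controls were less than 1 apart. The treated array lay below both, as their choice among genes at least 2-fold below each control required.

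Genes of the integrated stress response differed from one another, and as a list they were not higher in the treated cells. Of 24 regulators and feedback genes of the stress response 15 were measured, 7 of them above both controls (46.7%, against 40.1% of all member genes) and 4 below both (26.7%, against 37.2%). Their median difference was 0.10, or 0.00 with undetected genes at their bounds, and it turned to -0.11 over the 8 genes detected on all 3 arrays. At least 2-fold above each control stood 3 (20.0%, against 3.91%), and 0 stood below (against 6.36%). The 3 were Trib3, Chac1 and Ddit3. Chac1, which encodes an enzyme that degrades glutathione, was at 5.12 (not detected) and 6.11 on the controls and at 9.20 after amsacrine, a difference of 3.59 ± 0.48 (limma adjusted p = 0.0694). Ddit3, the gene of the transcription factor CHOP, was at 7.88, 8.86 and 10.42, a difference of 2.05 ± 0.48. Both lay above the 2 controls by more than the controls differed. Atf4 itself was at 8.64 on control 1, 9.81 on control 2 and 10.53 after amsacrine, so its controls were 1.17 apart against a difference of 1.30 ± 0.53. Ppp1r15a, whose product reverses eIF2α phosphorylation, was at 9.09, 11.65 and 9.06. It lay at the level of control 1 and far below control 2. The list's own median differed by 0.58 between the controls.

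Genes of amino acid supply were mostly higher in the treated cells. The 3 lists together held 32 measured genes of 57, of which 28 were above both controls (against 40.1% of all member genes) and 2 below both (against 37.2%). They had a median of 1.14, or 0.67 with undetected genes at their bounds, against 0.02 for all member genes. At least 2-fold above each control stood 14 of the 32 (11 with bounds), against 3.91% of all member genes (3.2% with bounds), and 0 stood below. Of the 32, 7 were detected only on the amsacrine array. Among the 25 detected on all 3 arrays 8 were at least 2-fold higher (against 3.09% of all such genes). The control pair differed by a median of 0.07. Over all genes 1 of the 32 passed the adjusted threshold, Slc1a4. As higher, 17 had an unadjusted p under 0.05 (against 7.77% of all member genes).

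Of 11 measured amino acid transporters 6 were at least 2-fold above each control (54.5%, against 3.91% of all member genes), or 4 with bounds (against 3.2%). Of the 11, 4 were detected only on the amsacrine array. Among the 7 detected on all 3 arrays 2 were at least 2-fold higher. The list median was 1.33 (0.49 with bounds). That median was 0.72 with the normexp background, 0.77 with no background correction and 0.50 in the authors' table. Slc6a9, a glycine transporter gene, was at 4.76 and 5.33 on the controls, neither detected, and at 8.02 after amsacrine, at least 4.59-fold higher. Slc43a3, whose product in humans is known as a carrier of nucleobases, was at 6.54, 7.31 and 9.29, a difference of 2.37 ± 0.43. It is still counted among the 11 transporters and the 6 at least 2-fold higher. Slc7a5 encodes the large neutral amino acid transporter LAT1. It was at 8.91 and 9.19 on the controls and at 11.19 after amsacrine, a difference of 2.14 ± 0.34 (limma adjusted p = 0.0865).

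Of 9 measured enzymes of amino acid, serine and one-carbon synthesis 8 were above both controls (88.9%, against 40.1% of all member genes). At least 2-fold above each control stood 5 (55.6%, against 3.91%), or 4 with bounds (against 3.2%). The list median was 1.27 (0.68 with bounds). That median was 0.76, 0.80 and 0.44 in the same 3 settings. Mthfd2, a folate enzyme of mitochondria, was at 9.58 and 9.43 on the controls and at 11.80 after amsacrine, a difference of 2.30 ± 0.33 (limma adjusted p = 0.0763). Shmt2, which splits serine in mitochondria, was at 7.04, 7.11 and 9.34, a difference of 2.27 ± 0.33. Asns, the asparagine synthetase gene, was not detected on the controls (5.30 and 5.37) and was at 7.57 after amsacrine, at least 3.36-fold higher. In Mthfd2 and Shmt2 the controls nearly coincided. Those of Asns did too, but as undetected background signal. Shmt1 was detected only after amsacrine and was at least 1.55-fold higher. The fifth was Psat1, a serine synthesis gene chosen after its values were seen, at 8.46, 8.64 and 9.82.

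Of 12 measured aminoacyl-tRNA synthetases, which load amino acids on tRNAs, 11 were above both controls and 1 below, with a median of 0.81 (0.70 with bounds), and 3 were at least 2-fold higher. Aars, for alanine, was at 9.25, 9.49 and 11.58, a difference of 2.21 ± 0.34 (limma adjusted p = 0.0808). Cars, for cysteine, was at 7.30, 6.92 and 9.20, a difference of 2.09 ± 0.35. Gars, for glycine, was at 11.38, 11.30 and 12.85, a difference of 1.50 ± 0.33. In all 3 the treated array lay above both controls by far more than the controls differed. The plot of amino acid supply genes shows the members one by one.

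**Figure D3:**
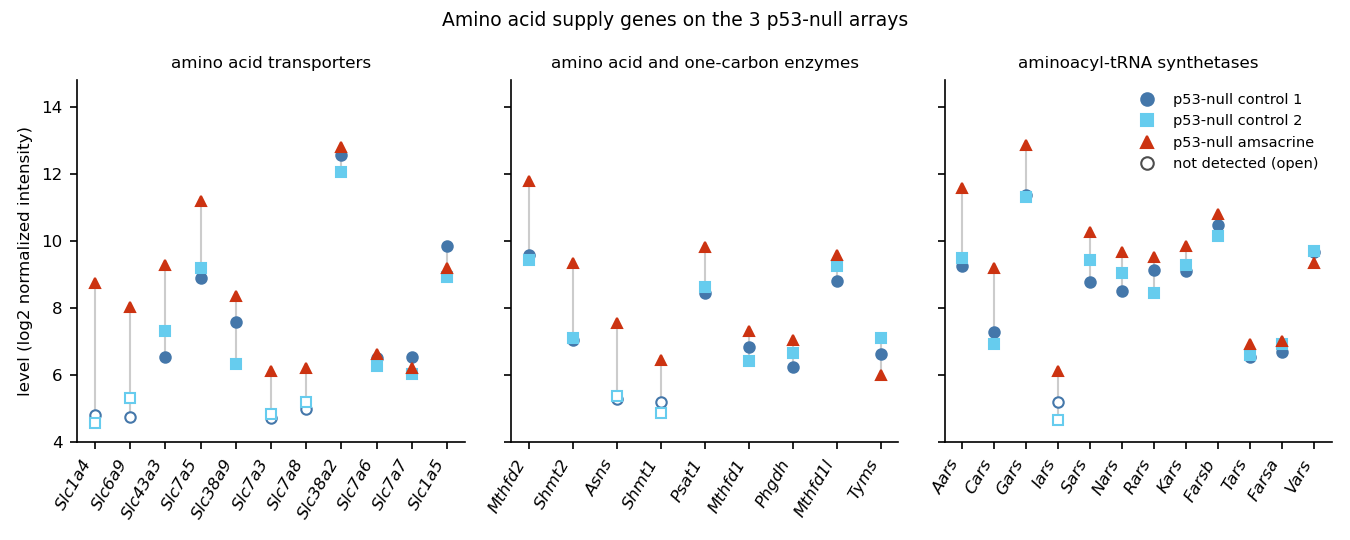
Log2 normalized intensity on the 3 p53-null arrays for the 32 measured genes of the amino acid transporter (11), enzyme (9) and aminoacyl-tRNA synthetase (12) lists, ordered in each panel by the difference. Open symbols mark an array on which the gene was not detected; the triangle (amsacrine) is above both controls for 28 of the 32.

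ATF4 with C/EBP partners binds a composite element that is written TGATGNAA here. Promoter sequences were taken from RefSeq (GRCm38.p6), 300 bases around each annotated start, and both strands were searched for it. It was found in 3.97% of all 32851 promoters in the table, in 2.96% of the 5613 member genes with a promoter, and in 7 of 24 amino acid supply genes with one (29.2%). By list the element was in 1 of 9 enzyme, 2 of 7 transporter and 4 of 8 synthetase genes with a promoter. It was found in 10 of the 209 genes at least 2-fold higher (4.78%) and in 15 of the 351 at least 2-fold lower (4.27%). The promoters of 6 stress response and amino acid supply genes that hold it are shown, 5′ to 3′ on the strand of the gene and in lower case, with the element or its reverse complement in capitals. A match of letters is a description and not a measured binding site.
Trib3: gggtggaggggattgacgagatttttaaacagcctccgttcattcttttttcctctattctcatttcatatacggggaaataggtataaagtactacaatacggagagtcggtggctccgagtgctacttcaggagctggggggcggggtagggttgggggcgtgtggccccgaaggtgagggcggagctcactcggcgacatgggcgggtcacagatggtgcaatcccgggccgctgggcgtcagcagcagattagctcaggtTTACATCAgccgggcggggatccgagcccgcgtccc
Chac1: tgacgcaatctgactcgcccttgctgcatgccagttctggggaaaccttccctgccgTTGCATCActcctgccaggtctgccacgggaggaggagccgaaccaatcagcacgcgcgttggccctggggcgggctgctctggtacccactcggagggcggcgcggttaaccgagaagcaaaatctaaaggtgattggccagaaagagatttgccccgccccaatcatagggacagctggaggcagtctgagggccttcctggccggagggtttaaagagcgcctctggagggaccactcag
Asns: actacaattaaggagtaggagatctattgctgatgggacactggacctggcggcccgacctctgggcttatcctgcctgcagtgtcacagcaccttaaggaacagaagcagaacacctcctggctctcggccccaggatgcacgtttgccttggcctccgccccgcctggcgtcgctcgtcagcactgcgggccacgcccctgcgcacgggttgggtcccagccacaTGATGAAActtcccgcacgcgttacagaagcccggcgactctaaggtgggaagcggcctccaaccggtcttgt
Slc1a4: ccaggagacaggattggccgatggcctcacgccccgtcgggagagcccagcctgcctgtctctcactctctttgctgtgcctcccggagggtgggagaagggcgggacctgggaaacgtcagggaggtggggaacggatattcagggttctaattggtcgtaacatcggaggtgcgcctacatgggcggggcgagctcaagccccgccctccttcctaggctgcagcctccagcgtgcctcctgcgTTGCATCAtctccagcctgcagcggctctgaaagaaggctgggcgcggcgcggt
Aars: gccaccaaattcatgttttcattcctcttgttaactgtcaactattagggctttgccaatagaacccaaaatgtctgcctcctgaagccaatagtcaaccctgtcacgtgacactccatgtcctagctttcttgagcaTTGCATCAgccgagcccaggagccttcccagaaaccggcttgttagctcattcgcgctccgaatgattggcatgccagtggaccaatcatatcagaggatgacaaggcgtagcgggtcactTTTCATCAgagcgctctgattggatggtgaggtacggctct
Gars: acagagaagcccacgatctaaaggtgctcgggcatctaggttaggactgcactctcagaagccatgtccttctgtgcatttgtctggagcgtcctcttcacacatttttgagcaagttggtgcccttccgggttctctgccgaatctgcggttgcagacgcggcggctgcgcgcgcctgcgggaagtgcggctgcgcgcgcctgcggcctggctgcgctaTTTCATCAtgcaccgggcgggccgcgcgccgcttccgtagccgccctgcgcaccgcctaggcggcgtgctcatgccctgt
The Trib3 window is chr2:152344011-152344310 (minus strand), with the element starting 14 bases after the annotated start of transcription. That of Chac1 is chr2:119350992-119351291 (plus strand), that of Asns chr6:7693160-7693459 (minus strand) and that of Slc1a4 chr11:20332664-20332963 (minus strand). That of Aars is chr8:111033592-111033891 (plus strand), with 2 elements, and that of Gars is chr6:55037751-55038050 (plus strand). In Slc1a4 the element lies across the annotated start, and in Asns and Gars it lies shortly before it. Of other motifs searched on both strands, the cyclic AMP response element TGACGTCA was in 9 of the 209 higher genes (4.31%), in 2 of the 351 lower genes (0.570%) and in 3.71% of member genes. The E-box of lysosomal genes, TCACGTGA, was in 1.44% of the higher, 2.28% of the lower and 2.46% of the member genes. Of the 24 amino acid supply genes 2 held this E-box (8.33%), both synthetases, and 0 held the cyclic AMP response element. No stretch of 8 letters matches more than 1 of these 3 motifs.

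Genes of the endoplasmic reticulum were not part of the higher group. Of 10 measured chaperones and folding enzymes 1 was above and 6 were below both controls, with a median of -0.38 (-0.18 with bounds). Sdf2l1 was at 7.21 and 7.57 on the controls and not detected after amsacrine (5.37), at least 2.71-fold lower, and Pdia4 was at 9.70, 9.32 and 8.23. Hspa5, the gene of the chaperone BiP, was detected only on control 2. Herpud1, which takes part in degradation of misfolded proteins, was above both controls at 9.71, 9.73 and 10.48. Of 6 measured heat shock chaperones 4 were below both controls (66.7%, against 37.2%) and 0 above (against 40.1%). Their median was -0.64 against a control difference of 0.57. Hsph1 was at 10.77, 10.78 and 9.62.

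Antioxidant genes driven by the transcription factor Nrf2 had a median of 0.33 (0.19 with bounds) over 15 measured genes. At least 2-fold above each control stood 5 (33.3%, against 3.91% of all member genes), or 4 with bounds (against 3.2%), and 0 stood below (against 6.36%). Over the 12 genes detected on all 3 arrays the median was 0.07, and 2 were at least 2-fold higher. Srxn1, which encodes sulfiredoxin, an enzyme that repairs oxidised peroxiredoxins, was not detected on the controls (5.16 and 4.89) and was at 7.87 after amsacrine, at least 4.15-fold higher (limma adjusted p = 0.069). Sqstm1, the autophagy receptor p62, was at 9.93, 10.34 and 11.74, a difference of 1.61 ± 0.36. Nfe2l2, the gene of Nrf2 itself, was at 6.06 and 5.64 on the controls and at 7.31 after amsacrine. The ferritin heavy chain gene Fth1 was at 12.51, 12.33 and 13.87, a difference of 1.45 ± 0.33. These 4 are among the 5 at least 2-fold above each control, so their groups do not overlap by that choice. The fifth gene, Nqo1, chosen after its values were seen, was detected only after amsacrine, at 5.97, and was at least 1.11-fold higher.

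Lysosome and autophagy genes had a median of -0.05 over 26 measured members. By normalized values 5 of them stood 2-fold or more above each control (19.2%, against 3.91% of all member genes), or 4 with bounds (against 3.2%). Below stood 0 (against 6.36%). Besides Gpnmb and Sqstm1 the 5 higher genes were Rragd, Gabarapl1 and Flcn. Rragd encodes a GTPase that ties amino acid supply to mTORC1 at the lysosome. It was not detected on the controls (4.91 and 5.11) and was at 6.75 after amsacrine, at least 1.90-fold higher. Flcn, the gene of folliculin, a regulator of that GTPase, was chosen after its values were seen. It was at 10.28, 10.22 and 11.81, a difference of 1.57 ± 0.33. Gabarapl1, which marks autophagosomes, was at 6.38, 6.96 and 8.31. The cathepsins, LAMPs and proton pump subunits on the list did not reach 2-fold either way from each control.

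Ribosome biogenesis genes encode nucleolar factors that process and assemble ribosomal RNA. Of 27 measured, 24 were above both controls (against 40.1% of all member genes) and 3 below both (against 37.2%). Their median was 0.73, with a control difference of 0.21. At least 2-fold above each control stood 4 of the 27 (against 3.91% of all member genes). As higher, 11 had an unadjusted p under 0.05 (against 7.77%). Heatr1 was at 10.76, 10.35 and 12.25, a difference of 1.69 ± 0.36. Mybbp1a, which acts with RNA polymerase I, was at 7.16, 6.69 and 8.25. Nop14 was at 7.26, 7.67 and 8.68 and Gnl3, the gene of nucleostemin, at 10.91, 10.66 and 11.94. These are the 4 genes of the list that were at least 2-fold above each control. The ribosomal proteins themselves had a median of 0.12 over 22 genes, with 0 at least 2-fold either way, and proteasome subunits a median of 0.33 over 22 genes, also with 0.

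Targets of p53 were measured to see what remained of their response without the protein. Of 14 feedback and arrest targets 0 were at least 2-fold from each control (3.91% of all member genes were higher and 6.36% lower). Above both controls lay 6 (42.9%, against 40.1% of all member genes) and below both 2 (14.3%, against 37.2%). The list median was 0.31 against a control difference of 0.40. Cdkn1a, which encodes the cell cycle inhibitor p21, was not detected on control 1 (4.97) and was at 7.98 on control 2 and 8.24 after amsacrine. Its treated level lay close to control 2, and the difference of 1.77 ± 1.13 rests on control 1. Mdm2, whose product degrades p53, was at 10.60 and 10.44 on the controls and at 10.88 after amsacrine, a difference of 0.36 ± 0.33. On the WT arrays Mdm2 was at 10.30 on the control and at 12.52 after amsacrine. Plk2 was at 5.52 (not detected), 9.58 and 8.92, between its controls. Of 19 targets in death, repair and metabolism 11 lay above both controls (57.9%, against 40.1%) and 4 below both (21.1%, against 37.2%). Their median was 0.16, with 0 at least 2-fold higher (against 3.91% of all member genes). By normalized values 2 were at least 2-fold lower (10.5%, against 6.36%), or 1 with bounds. The lower pair were Ephx1, an epoxide hydrolase gene (9.83, 9.78 and 8.27), and Trim7 (6.12, 6.22 and, not detected, 4.77), which was at least 1.16-fold lower. The death receptor gene Fas was at 6.00, 5.91 and 6.68.

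The same dose in WT cells gave medians of 0.81 and 1.13 for these lists of p53 targets, from 1 array of each kind. Over both lists the p53-null difference was the smaller for 22 of 33 genes, against 3499 of all 6806 member genes. Of the 33, 9 had an unadjusted p under 0.05 for a smaller difference (0.911% of member genes did). The median difference between the genotypes over the 33 was -0.83, against -0.01 for all member genes. Over all genes the limma test of p53-null minus WT called 0 genes (0.0%, smallest adjusted p 0.647), with 95 genes at an unadjusted p under 0.05 (1.4%), 33 higher (0.485%) and 62 lower in p53-null cells. No single gene is therefore shown to respond differently between the genotypes. Slc19a2, a thiamine transporter gene on the p53 target list, was at 6.52, 6.86 and 7.28 in p53-null cells and at 7.46 on the control and 10.73 after amsacrine in WT cells, a difference between responses of -2.68 ± 0.53. The plot of both genotypes places 22 of these targets below the diagonal and 11 above it. Of all member genes it places 3499 below and 3307 above.

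**Figure D4:**
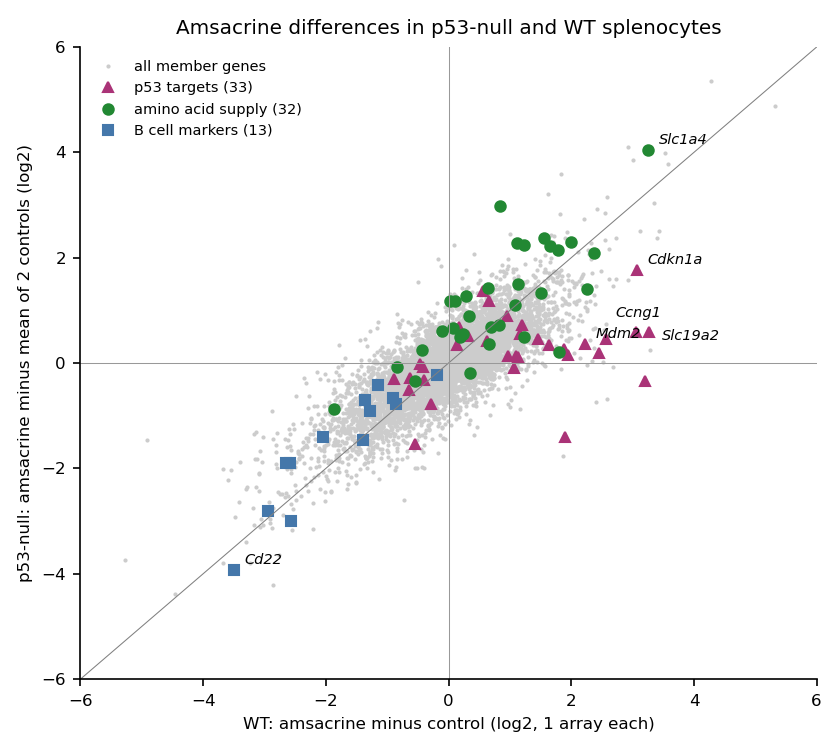
Log2 difference after amsacrine in WT cells (x axis, 1 array each) against that in p53-null cells (y axis, 1 amsacrine array minus the mean of 2 controls) for the 6806 member genes; the diagonal marks equal differences. Triangles are 33 p53 targets, circles 32 amino acid supply genes and squares 13 B cell markers. Of the p53 targets 22 of 33 lie below the diagonal, as do 3499 of all 6806 member genes. B cell markers are below 0 in both genotypes. Differences that involve undetected arrays are not exact.

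The 5 smallest p-values for a lower response in p53-null cells were those of Scd2, Trim7, Tnfsf8, Ddit4 and Slc19a2. Scd2, a fatty acid desaturase gene, was at 10.63, 10.50 and 8.79 in p53-null cells and at 10.37 and 12.23 on the WT control and amsacrine arrays, so the directions were opposite. The difference between responses was -3.63 ± 0.50, which did not pass over all genes. Ddit4, whose product restrains mTORC1, was at 6.44 and 6.35 on the p53-null controls and not detected after amsacrine (5.65), and was at 5.97 and 8.37 in WT cells. Trim7 and the cytokine gene Tnfsf8 were detected on the p53-null controls and not after amsacrine, while in WT cells they were detected only after amsacrine, at 7.04 and 7.97. Those for a higher response were Thbs1, Slc6a9, Ccn2, Chst12 and Clec4b1. Thbs1, the gene of the matrix protein thrombospondin 1, was detected only on the p53-null amsacrine array among these 5 arrays, at 6.77. Slc6a9 reached a like level after amsacrine in both genotypes (8.02 and 8.10), but was not detected on the p53-null controls and was at 7.26 on the WT control. Chst12 and Clec4b1 were close to their controls in p53-null cells and not detected on the WT amsacrine array.

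Genes of the Bcl-2 family and the caspases, which carry out apoptosis, had members on both sides. Of 22 measured genes 2 were at least 2-fold above each control (9.09%, against 3.91% of all member genes) and 3 below (13.6%, against 6.36%), with a median of -0.15. Beside Bcl2l11, the higher one was Bcl2l1, which encodes the survival protein Bcl-xL, at 6.35, 6.16 and 7.87, a difference of 1.61 ± 0.33. The lower ones were Bcl2 at 11.78, 11.06 and 9.92, Casp9 at 7.34, 7.64 and 6.18, and Mcl1, named after its values were seen, at 12.21, 12.19 and 11.11. All 4 other probes of Bcl2 had the same sign. Each direction included both survival and death genes. In WT cells the differences were 3.34 for Bcl2l11, 1.69 for Bcl2l1 and -1.08 for Bcl2.

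The topoisomerases that amsacrine poisons were not among the large differences. Top2a, which encodes the isoform of dividing cells, was at 7.80, 7.60 and 7.07, a difference of -0.63 ± 0.33. Top2b, the isoform found in all cells, was detected only on control 2, at 6.13. Of 10 measured topoisomerases and adduct repair genes 2 were at least 2-fold higher (20.0%, against 3.91% of all member genes). Tdp1, an enzyme that removes topoisomerase peptides from DNA ends, was detected only after amsacrine (6.94) and was at least 2.18-fold higher. Nbn, part of the complex that senses double-strand breaks, was at 7.62, 7.27 and 8.64. Among 22 measured genes of damage signalling and repair the median was 0.09, and 1 was at least 2-fold higher (4.55%, against 3.91%). That gene was Fanci of the Fanconi pathway, detected only after amsacrine (6.91) and at least 2.13-fold higher. Trp53bp1, which protects broken ends, was at 9.34, 8.87 and 10.18, a difference of 1.08 ± 0.37.

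Most measured cell division genes lay below both controls. Of 13 mitotic genes 11 did (37.2% of all member genes did), and 6 were lower by 2-fold or more in normalized values (6.36%), or 3 with bounds (5.2%). Their median was -0.95 (-0.66 with bounds, and -0.36 in the authors' table), with a control difference of 0.35. Cdc20, an activator of the anaphase-promoting complex, was at 7.31 and 7.42 on the controls and not detected after amsacrine (5.55), at least 2.66-fold lower. Aurkb, a mitotic kinase gene, was at 6.75, 6.97 and, not detected, 5.19, at least 1.88-fold lower. Cdk1 was at least 1.57-fold lower, and Nusap1 was at 8.05, 8.73 and 6.78. All 4 lay below both controls. Of 24 measured genes of DNA replication 16 were below and 6 above both controls, with a median of -0.48 (-0.28 with bounds). Tk1 (7.10, 7.33 and 6.08) and Pold1 (11.01, 10.92 and 9.83) were at least 2-fold lower. Rrm2 and Ccne1 were not detected after amsacrine, Rrm2 was at least 1.24-fold lower, and for Ccne1 the bound gives no fold. The WT medians of these lists were -1.29 and -0.80. Among 7 measured histone genes H4c8 (7.62, 7.61 and 8.73) and H4c9 (8.66, 8.56 and 9.78) were at least 2-fold higher (28.6%, against 3.91% of all member genes). Of the 7, 4 were above both controls (57.1%, against 40.1%) and 3 below (42.9%, against 37.2%). H1f2 was at 11.76, 14.06 and 11.42 and H2bc4 at 8.67, 10.24 and 8.30, both below the controls, which were further apart than control 1 was from the treated array.

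Interferon-stimulated genes serve antiviral defence. Of 25 measured, 22 were below both controls (88.0%, against 37.2% of all member genes) and 0 above (against 40.1%). Their median was -0.74 (-0.49 with bounds), with a control difference of -0.26. By normalized values 6 were at least 2-fold lower (24.0%, against 6.36%), or 5 with bounds (against 5.2%). Oas2, a sensor of double-stranded RNA, was at 7.58 and 6.93 on the controls and not detected after amsacrine (5.06), at least 2.47-fold lower. The chemokine gene Cxcl9 was at 7.57, 7.17 and, not detected, 5.72, at least 2.67-fold lower. Oas1g was at 9.78, 9.25 and 7.88, and its 2 other probes had the same sign. Bst2 was at 9.88, 11.41 and 9.11, so its controls were further apart than the treated array was from control 1. The WT median was -0.41.

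NF-kB subunits and feedback targets had a median of 0.51, but 0.75 against control 1 and -0.05 against control 2. Nfkbie, which encodes an inhibitor that NF-kB induces, was at 9.89, 9.28 and 11.22, a difference of 1.64 ± 0.39. It was the only one of 21 at least 2-fold above each control (4.76%, against 3.91% of all member genes). Cd83 was at 8.67, 10.88 and 11.63. Immediate early genes, which cells switch on within minutes of a stimulus, differed more between the controls (median 1.50) than between amsacrine and their mean (median -0.95). Fosb was at 8.19 and 10.31 on the controls and not detected after amsacrine (5.52), at least 9.88-fold lower. Fos was at 10.86, 12.53 and 8.58. Both lay below the 2 controls, whose own order was the same for each. The third of the list at least 2-fold lower, Jun (7.77, 9.05 and 6.59), was named after its values were seen, and Fosl2 was the 1 at least 2-fold higher. Klf4 was at 6.05 and 8.92 on the controls and not detected after amsacrine (5.13).

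The labelled tissue was checked on markers of its cell types. Measured were 13 of 16 B cell, 13 of 16 T cell and 10 of 18 monocyte and macrophage markers. Of these, 12, 13 and 10 were detected on all 3 arrays, against 5429 of the 6806 member genes. Measured markers are by definition detected on at least 1 of these arrays, so the check is limited. In these bulk samples fewer cells of a type and less RNA per cell cannot be told apart. B cell markers were below both controls in 12 of 13 cases (92.3%, against 37.2% of all member genes). Of the 13 markers 7 were at least 2-fold lower (53.8%, against 6.36%), with a median of -1.41 against a control difference of -0.18. Their summed level, on the log2 scale, was 15.84 and 15.63 on the controls and 14.64 after amsacrine. Beside Cd22, which fell, Bank1, a signalling scaffold of B cells, was at 8.67, 9.27 and 5.97, a difference of -3.00 ± 0.39 (limma adjusted p = 0.0694). Vpreb3 was at 10.70, 10.36 and 7.72, a difference of -2.81 ± 0.35. Cd79a, part of the antigen receptor itself, was at 12.19, 12.12 and 10.25, a difference of -1.90 ± 0.33. The spread within the list was wide, from -3.93 to -0.23. The WT median was -1.39.

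Macrophage markers had a median of -1.28 over 10 genes, with 7 at least 2-fold lower and 8 below both controls. Their summed level was 13.87 and 13.69 on the controls and 12.27 after amsacrine. Ly6c1 was at 12.13, 11.88 and 9.39, a difference of -2.62 ± 0.34 (limma adjusted p = 0.0694). Mrc1, the mannose receptor gene, was at 8.27, 7.91 and 6.20, and the lysozyme gene Lyz2 at 12.66, 12.22 and 10.97. Cd14 was the exception, at 6.04, 7.68 and 8.38, above both controls. Gpnmb, which macrophages are known to make, rose on the same array.

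Neutrophil markers were below both controls in 12 of 15 cases and above in 0, with a median of -1.18, but the control difference was 1.13. The median was -0.60 against control 1 and -1.83 against control 2. Hp and Ffar2 were the 2 members at least 2-fold below each control (13.3%, against 6.36% of all member genes). Mpo, a granule enzyme gene, was at 6.61 and 9.47 on the controls and not detected after amsacrine (5.94), and Cxcr2 was detected only on control 2. The summed level of the list was 14.27 and 15.36 on the controls and 13.60 after amsacrine. The part of the controls' neutrophil difference in the values of Hp and Ffar2 was not tested. Both genes were at like levels on the 2 controls.

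T cell markers were lower by less. Of 13 measured, 10 were below both controls (76.9%, against 37.2% of all member genes) and 3 at least 2-fold (23.1%, against 6.36%). Their median was -0.43, with a control difference of 0.01. Thy1 was at 12.45, 12.51 and 10.63, Lat, an adaptor of the T cell receptor, at 9.44, 9.62 and 7.73, and Cd8b1 at 13.08, 12.91 and 11.89. Their summed level was 15.18, 15.10 and 14.56. The NK and cytotoxic list had a median of -0.49 with controls 0.95 apart. Nkg7, a granule gene of cytotoxic cells, was at 12.03, 11.81 and 9.94 and was the only one at least 2-fold lower, while Klrd1 was at 10.16, 10.84 and 11.43. Dendritic cell markers differed both ways, with Ccr7, a homing receptor of mature cells, at 11.37, 12.76 and 13.76, and Cd209a detected only on the controls. The plot of list medians sets each list beside the control pair.

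**Figure D5:**
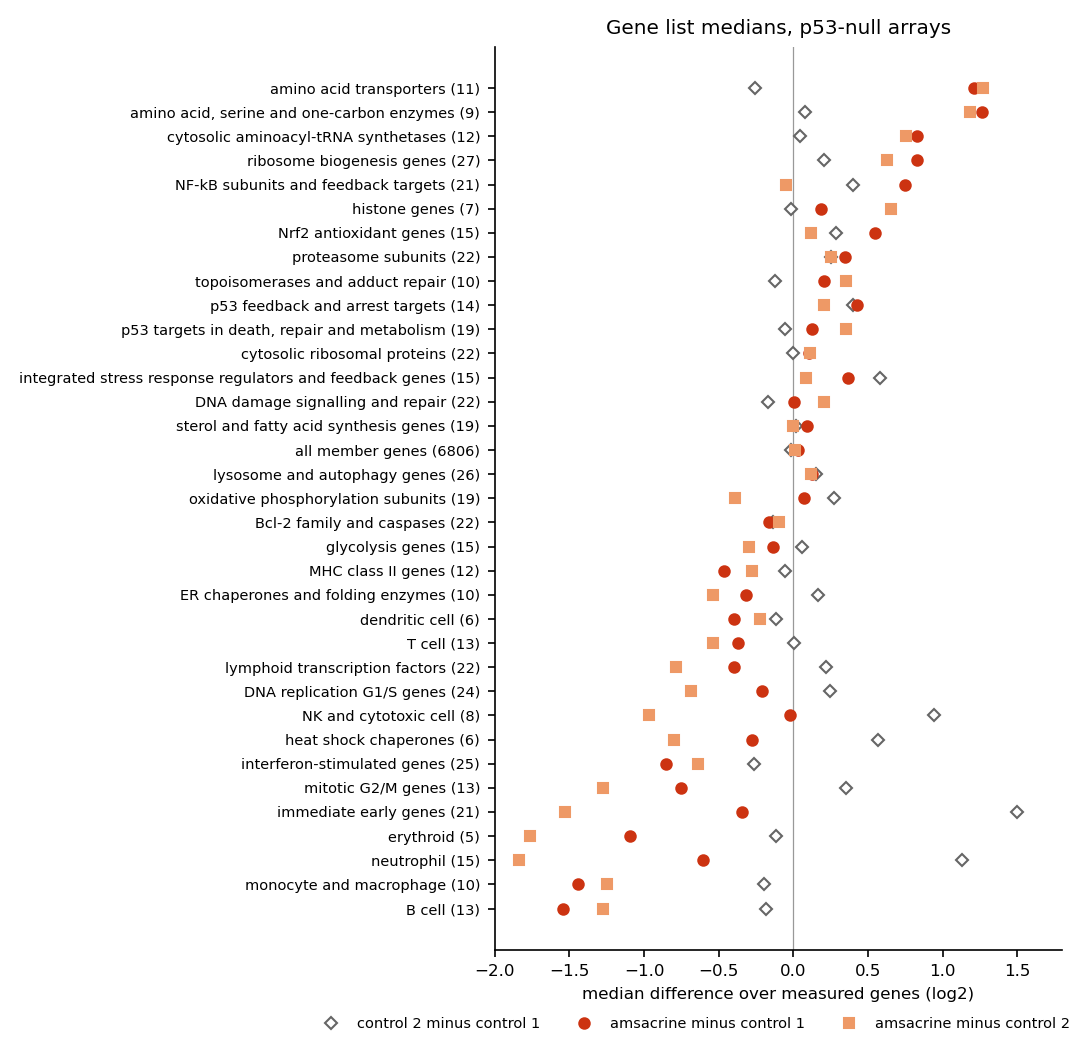
Median log2 difference over the measured genes of each list (number in parentheses), for amsacrine minus control 1 (circles), amsacrine minus control 2 (squares) and control 2 minus control 1 (open diamonds). Amino acid lists lie right of 0 and B cell and macrophage lists left of 0 against either control, with the diamonds near 0; for immediate early, neutrophil and NK genes the diamonds lie at 0.95 to 1.50. Medians include genes not detected on some arrays.

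Lists of antigen presentation and lymphocyte identity genes had medians below 0. Of 12 genes on the MHC class II list, all detected on the 3 arrays, 4 were at least 2-fold lower (33.3%, against 6.36% of all member genes). At least 2-fold higher was 1 (8.33%, against 3.91%). The list median was -0.36. H2-DMb1 and H2-DMa encode the chain pair that loads peptides on class II molecules. They were at 12.66, 12.29 and 10.52 and at 11.82, 11.97 and 10.33. H2-Oa, which opposes that loading, was at 10.73, 10.99 and 9.24, and Ciita, the master regulator of class II genes, at 11.26, 10.19 and 9.09. The 4 lay below both controls, although the controls of Ciita were 1.06 apart. The 1 higher member was the costimulatory gene Cd86, named after its values were seen, at 9.89, 9.16 and 10.96. Of 22 lymphoid transcription factors 12 were below both controls (54.5%, against 37.2% of all member genes) and 3 at least 2-fold lower (13.6%, against 6.36%), with a median of -0.48. Bcl11a, needed for B cell development, was at 10.06, 10.20 and 7.16, a difference of -2.97 ± 0.33 (limma adjusted p = 0.0581). Its T cell relative Bcl11b was at 11.01, 11.31 and 9.51, and the B cell factor gene Pou2f2 at 9.04, 8.58 and 7.44. Irf4 was at 9.23, 10.76 and 11.27.

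Metabolic lists showed few differences of 2-fold. Glycolysis genes had a median of -0.30 over 15 genes, with Pfkm at 7.31 and 7.63 on the controls and not detected after amsacrine (5.94), at least 2.87-fold lower. Subunits of oxidative phosphorylation had a median of -0.10 over 19 genes and 0 at least 2-fold either way. Of 19 sterol and fatty acid synthesis genes 1 was at least 2-fold higher and 1 lower. Dgat1, which makes triglycerides, was at 7.55, 7.69 and 10.12, a difference of 2.50 ± 0.33 (limma adjusted p = 0.0694), and Scd2 was the lower one.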

How the data were processed

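Total RNA from 8 splenocyte samples was hybridised to 1-colour Illumina arrays. The authors deposited signal intensities and a detection p-value per probe for 24613 probes, non-normalized per the file headers; the sources used here do not name the scanner software. A second deposited table holds normalized values of the same arrays, made with lumi per the submitters' processing notes. These deposited values were read as log2 values, but how the authors transformed them is not stated, so they were used only in an alternative.

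Background was estimated from the detection p-values and removed with neqc (offset 16) of limma 3.58.1 in R 4.3.3, and the intensities were quantile normalized over all 8 arrays and put on the log2 scale. Of the probes, 20984 had 1 gene symbol, 1 had several and 3628 were unnamed, and 20968 symbols were matched to the reference gene table through Entrez identifiers. Of the 9306 probes that are members, 7178 were detected on all 3 arrays, 1013 on 2 and 1115 on 1. Unnamed ones numbered 1230, and 1270 were other probes of a gene, of which 959 had the sign of the probe used, the one with the highest mean over 8 arrays.

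A limma model of group means (7 groups) was tested 2-sided with Benjamini-Hochberg adjustment over 7456 genes. The 1 residual degree of freedom is the difference within the p53-null control pair, so each group of 1 array is taken to vary as that pair does (prior degrees of freedom 4.78, prior SD 0.29). A fold given with "at least" divides the mean of the detected side by a floor for the other side, taken on each array as the lowest detected signal or the gene's own value, whichever was higher. Summed levels are log2 of summed linear intensities. Gene lists were described by counts and medians over measured genes, meaning those detected on at least 1 of the 3 arrays. Counts of genes at least 2-fold from each control use normalized values, and the count with bounds keeps those that are also 2-fold against the floor. The script was tested on simulated data.

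The members, lists and tests were chosen with earlier results of these data known. Genes were named by rule: all past the threshold, the 15 largest at least 2-fold from each control each way, the 4 largest of each list, Cdkn1a, Mdm2, Top2a, Top2b, Atf4 and Trib3, and the 5 smallest p-values each way for the difference from WT; others are said to be named after their values were seen. Alternatives covered background correction, normalization, the authors' table, the detection filter, the probe rule, the variance model and each control left out. No genome position of a probe was used.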

Additional observations from a re-analysis of the deposited data

How the results depend on the processing

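Of the 10 genes past the adjusted threshold, 0 remained with a normexp background (offset 50; smallest adjusted p 0.0815), no background correction (0.0687), cyclic loess (0.176), the authors' value table (0.175) or no detection filter (0.204). All 10 remained with quantile scaling over the 3 p53-null arrays and robust eBayes (10 called), among 24 with a variance trend and among 63 with the mean of a gene's probes; 8 remained with every detected probe, and 2 among 55 over genes detected on all 3 arrays, where the genes undetected on 1 side are not tested. Of the 171 named genes 0 turned sign in these alternatives, but only 113 of them had a value over genes detected on all 3 arrays. The count at an unadjusted p under 0.05 was 2113 with no detection filter. The count at least 2-fold higher was 141, 149 and 82 with the normexp background, no background correction and the authors' table, and 168 over genes detected on all 3 arrays; the count lower was 240, 250 and 140. Against a single control the higher count was 643 without control 1 and 456 without control 2, and the lower count 807 and 603; these settings leave no residual degrees of freedom and no test. Without control 1, Eif2s3y, Kdm5d and Plk2 turned sign, and without control 2, Acta2, Hba-a1, Ppbp and Treml1. With sides that were not detected held at their bounds, an alternative chosen after seeing the data, the counts were 218 higher and 354 lower. Of 34 list medians 4 turned sign over genes detected on all 3 arrays: erythroid (-1.16 to 0.25, with 3 of 5 genes left), dendritic (-0.39 to 0.20), stress response (0.10 to -0.11) and DNA damage. With no filter DNA damage and the p53 targets in death, repair and metabolism turned, and with the mean of a gene's probes the lysosome list. The lysosome, NF-kB and sterol medians turned without control 1, and the lysosome and oxidative phosphorylation medians without control 2; 0 turned in the other alternatives. Among medians that lay nearer 0 in the authors' table were -0.86 for B cell (-1.41), -0.83 for macrophage (-1.28), -0.38 for interferon-stimulated (-0.74) and -0.36 for mitotic genes (-0.95), and the mitotic median was -0.15 with no filter. For p53-null minus WT, 0 genes passed wherever it was computed, and the count at an unadjusted p under 0.05, 95, was 146 in the authors' table, 555 with no filter and 143 with every probe; it was not computed over 3 arrays. No paired analysis was possible because the p53-null amsacrine group has 1 array, so the groups share fewer than 2 replicate numbers. The number of arrays limits these results, and so does signal near background, since the background method alone moved the calls and the 2-fold counts.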

Other observations

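Erythroid markers, which splenic red cell precursors express, differed among themselves. Of 5 measured genes, Aqp1, a water channel gene, was at 6.79 and 7.72 on the controls and not detected after amsacrine (5.23), at least 2.47-fold lower. Slc4a1, the red cell anion exchanger gene, was at 9.39, 9.28 and 7.34, a difference of -1.99 ± 0.33 (limma adjusted p = 0.0926). The globin gene Hba-a1 was at 14.64, 13.03 and 14.25, between its controls. Of the platelet genes, Ppbp was at 8.33, 6.58 and 7.98 and Treml1 at 7.52, 5.98 and 6.99, each between its controls. Of the Y-linked genes Kdm5d was at 6.64, 6.39 and 6.44, and Eif2s3y at 8.16, 9.47 and 9.29.

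Gene length was set beside the response. Over 6802 genes with a known span, the median difference was -0.08 for the 1361 shortest (up to 6.88 kb), 0.12 in the fourth of 5 bins of span and 0.01 in the longest bin. For the 650 genes of at least 100 kb it was -0.10. For the 90 genes of at least 300 kb it was -0.34, with -0.33 against control 1, -0.37 against control 2 and 0.10 between the controls. Of these 90 genes 12.2% were at least 2-fold lower, against 6.36% of all member genes, and 5.56% at least 2-fold higher, against 3.91%. The WT median of these 90 genes was -0.27. Among the 1230 unnamed member probes 56 were at least 2-fold above each control and 91 below, with differences from -3.30 to 3.71.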
